A study of Mus musculus with 11 samples.

Results

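The 37 genes described here are interferon-stimulated genes, a set of genes that cells switch on in response to interferons. They were taken by name from a fixed list of sensors, transcription factors, antiviral effectors and chemokines. All 37 were found, by Entrez ID, among the 23835 named genes on the arrays. Gene expression was measured on 11 Affymetrix arrays of H2B-eGFP-labelled mouse mammary tumour cells carrying MMTV-rtTA;TetO-Wnt1, which had been grown orthotopically in female nu/nu mice and isolated again. The 4 primary arrays hold cells of untreated tumours grown on doxycycline, the drug that keeps the Wnt1 transgene on. The 3 residual arrays hold cells of lesions left 28 days after doxycycline withdrawal, and the 4 recurrent arrays hold cells of tumours that came back after withdrawal, at a time the labels do not give. The series title calls the cells of all 3 groups by a single name, Wnt1-Prim1, the MMTV promoter drives rtTA mainly in mammary epithelium, and nu/nu mice lack a thymus and so most T cells. The labels do not tie the replicates to different mice, and each p-value therefore reflects the spread of these samples, which could be purely technical.

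Interferons are secreted proteins. Type I and type III interferons activate a complex that holds STAT2 and IRF9 and binds the interferon-stimulated response element of target promoters, while type II interferon acts through the gamma-activated site, GAS. The targets include sensors of foreign nucleic acid, proteins that block viral replication and chemokines that attract lymphocytes, and mammary tumour cells as well as immune cells can express them.

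RefSeq promoter windows, from 250 bases before to 50 bases after an annotated start in GRCm38.p6, were matched for 29 of the 37 genes. The response element was searched as GAAA and GAAAC with any 2 bases between them, and GAS as TTCNNNGAA, both on either strand. The response element letters were found in 13 of the 29 genes (44.8%), against 0.944% of the 27025 genes with a window and 0.819% of all 32851 windows. GAS letters were found in 7 of the 29 (24.1%), against 9.55% of the genes and 8.3% of all windows of that length. The stretches shown belong to genes whose levels are described further on, and the capitals mark the matching letters. GTTTC is the start of the element read on the other strand, the Isg15 stretch holds a pair of overlapping matches, and in Bst2 a GAS match ends on the first letters of the element. Cxcl10 lies at chr5:92349072-92349122 (minus strand), Bst2 at chr8:71537572-71537622 (minus), Gbp2 at chr3:142620583-142620633 (plus), Ifit1 at chr19:34640764-34640833 (plus) and Isg15 at chr4:156200860-156200916 (minus). For Gbp5 the response element stretch is chr3:142496748-142496798 and the GAS stretch chr3:142496862-142496910, both on the plus strand. The Irf1 stretch with GAS letters is chr11:53769904-53769952 (plus).
Cxcl10 response element: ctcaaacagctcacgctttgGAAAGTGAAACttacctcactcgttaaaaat
Bst2 response element: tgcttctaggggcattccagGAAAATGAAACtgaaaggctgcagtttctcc
Gbp2 response element: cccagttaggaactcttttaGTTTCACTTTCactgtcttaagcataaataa
Gbp5 response element: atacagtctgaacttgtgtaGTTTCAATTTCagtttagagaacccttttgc
Ifit1 response element: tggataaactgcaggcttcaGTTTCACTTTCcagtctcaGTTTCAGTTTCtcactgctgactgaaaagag
Isg15 response element: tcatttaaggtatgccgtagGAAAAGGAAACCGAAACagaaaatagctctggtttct
Gbp5 GAS: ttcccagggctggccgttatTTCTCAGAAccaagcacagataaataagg
Irf1 GAS: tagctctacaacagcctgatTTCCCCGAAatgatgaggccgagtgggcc

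**Figure D1:**
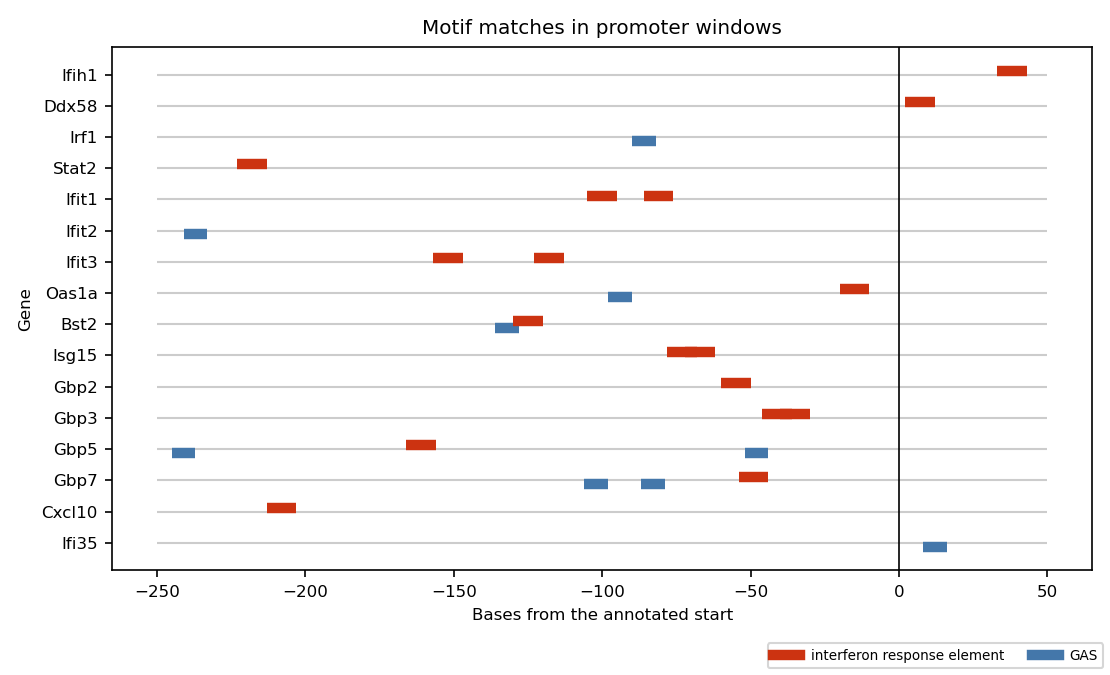
Positions of the response element (red) and GAS (blue) matches in the promoter windows of the genes with at least 1 match; the x axis is the distance in bases from the annotated start and the grey line is the window. The response element matches of 11 genes lie before the start, and those of Ddx58 and Ifih1 lie after it.

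In Irf1 the only match was a GAS, and in Cxcl10, Gbp2, Ifit1, Ifit3, Isg15, Gbp3, Stat2, Ddx58 and Ifih1 the only matches were response elements. Bst2, Gbp5, Gbp7 and Oas1a had both kinds, and Ifit2 and Ifi35 had GAS letters alone. Sp100, Xaf1, Cxcl9, Ifi44 and Trim25 had windows without either. Of 60 further interferon-stimulated genes kept as a second list, 45 had a window and 13 (28.9%) held the response element. A match is a description of letters and not of a working site, and the absence of one covers this window alone.

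The deposited values are log2 array signals. As a background level, the 95th percentile of 1066 olfactory receptor genes lay between 3.96 and 4.38 on the 11 arrays. By that level 23 of the 37 genes were above background on every array, 12 on some arrays, and Rsad2 and Cmpk2 on none. Across all 23835 genes, limma with Benjamini-Hochberg adjustment called 2960 between residual and primary, 430 between recurrent and primary and 1377 between recurrent and residual arrays at adjusted p under 0.05. The share of higher calls among these was 38.7%, 45.3% and 62.0%. With arrays centred on their medians it was 27.8% between residual and primary, and with quantile normalization repeated 45.0%. With arrays scaled to one median and interquartile range it was 52.2% between recurrent and residual. Arrays of a group correlated at 0.968 to 0.989. Wnt1 itself was listed between 2.89 and 3.26 on all arrays, under the background level even on the primary arrays, so its probe set does not check the labels. Of the mammary epithelial markers Krt8 and Krt18 were well above background on all arrays, while Krt17 was above it on none and Epcam on residual 2 alone, at 6.29.

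Between recurrent and primary arrays the set shifted upwards unevenly, and 2 genes passed the test. Cxcl10, a chemokine that draws activated T cells and natural killer cells, was 2.14 higher on the log2 scale, and Sp100, a component of PML nuclear bodies, was 1.55 higher. Fitted differences were above 0 for 28 of 37 genes and their median was 0.38, against -0.01 for all genes. The 2 calls are 5.4% of the set, beside 0.818% of all genes called higher and 1.8% called in either direction. None of the 37 was called lower, beside 0.986% of all genes. In samples of this kind, more cells of a type and more RNA per cell cannot be told apart.

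Against residual arrays the recurrent arrays were higher for 5 genes. These were Cxcl10, the transcription factor Irf1, the membrane tether Bst2, the RNA sensor Ddx58 (RIG-I) and Xaf1, an interferon-induced antagonist of the apoptosis inhibitor XIAP. The 5 calls are 13.5% of the set, beside 3.58% of all genes called higher and 5.78% called in either direction. Fitted differences were above 0 for 32 of 37 genes, with a median of 0.59 against -0.03 for all genes. None was called lower, beside 2.19% of all genes. The comparisons share arrays, so their counts are not independent.

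Between residual and primary arrays 1 gene passed, and it fell. Trim25, the ubiquitin ligase that acts on RIG-I, was 0.77 lower, which makes 2.7% of the set beside 12.4% of all genes called in either direction and 7.61% called lower. Fitted differences were above 0 for 11 of 37 genes and their median was -0.24, against 0.03 for all genes.

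**Figure D2:**
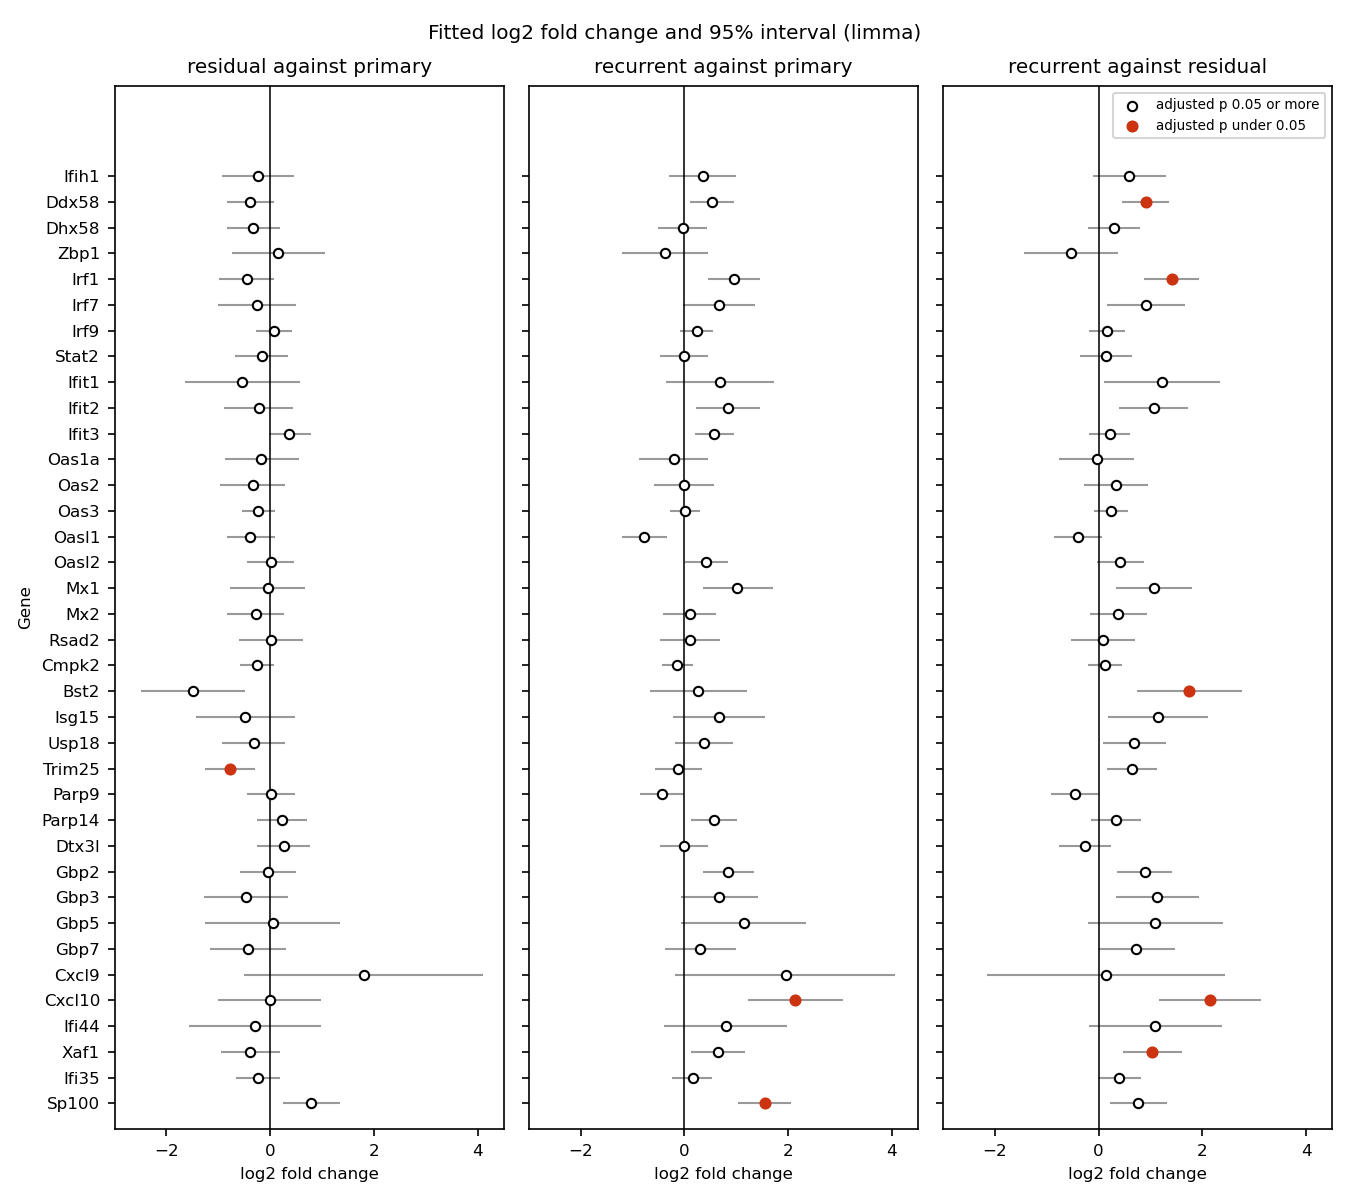
Fitted log2 fold change (x axis) of each of the 37 genes (y axis) with its 95% interval in the 3 comparisons from limma; filled points have an adjusted p under 0.05. Filled points number 1, 2 and 5 from left to right, and the intervals of Cxcl9, Gbp5, Ifi44 and Ifit1 are among the widest.

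Taken one by one, the 4 recurrent arrays were unlike each other in these genes. On recurrent 3, 29 of 37 genes (78.4%) were above all 4 primary arrays, beside 23.8% of all genes. On recurrent 4 the number was 26 (70.3%, beside 22.4%), on recurrent 1 it was 12 (32.4%, beside 24.0%) and on recurrent 2 it was 13 (35.1%, beside 23.6%). Recurrent 3 and recurrent 4 therefore carried most of the upward shift, and recurrent 1 and recurrent 2 were closer to the share seen over all genes. On the residual arrays 7, 4 and 3 genes (18.9%, 10.8% and 8.1%) were above all primary arrays, where 30.3%, 29.1% and 28.8% of all genes were. In the other direction, 10, 14 and 17 genes were below all primary arrays on residual 1 to 3 (27.0%, 37.8% and 45.9%, beside 26.4%, 28.8% and 28.2% of all genes). On recurrent 1 and 2 these were 11 each (29.7%, beside 27.3% and 25.0%), on recurrent 3 there were 0 (beside 26.5%) and on recurrent 4 there were 3 (8.1%, beside 26.2%).

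The median difference from the primary mean was -0.13 on recurrent 1, -0.01 on recurrent 2, 0.83 on recurrent 3 and 0.57 on recurrent 4. Over all genes the same median stayed between -0.02 and -0.01. A gene's range over the recurrent arrays had a median of 1.10 for the set and 0.52 for all genes, while over the primary arrays the medians were 0.45 and 0.44. Recurrent 3 and 4 were the 2 highest recurrent arrays for 31 of the 37 genes (83.8%), beside 18.6% of all genes. The exceptions were Irf1, Ifit2, Mx1, Trim25, Ifi35 and Oas3. Recurrent 3 gave the highest value of all 11 arrays for 20 of the 37 genes (54.1%, beside 9.57% of all genes), recurrent 1 and recurrent 4 for 5 each (beside 8.84% and 7.2%) and recurrent 2 for 0 (beside 6.78%).

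Genes at least 2-fold above the highest primary array numbered 12 on recurrent 3, 8 on recurrent 4, 5 on recurrent 1 and 0 on recurrent 2, beside 1.71%, 1.53%, 1.61% and 0.881% of all genes. Those on recurrent 3 were Cxcl9, Cxcl10, Gbp2, Gbp5, Ifit1, Ifi44, Isg15, Bst2, Ifih1, Parp14, Xaf1 and Sp100. Those on recurrent 4 were Cxcl9, Cxcl10, Gbp2, Gbp3, Gbp5, Gbp7, Irf1 and Sp100. On recurrent 1 they were Cxcl10, Irf1, Ifit2, Mx1 and Sp100. All 4 of the guanylate-binding proteins of the set thus passed this mark on recurrent 4 and 2 of them on recurrent 3. Ifit1, Ifi44 and Isg15 passed it on recurrent 3 and not on recurrent 4. The guanylate-binding proteins Gbp4, Gbp9, Gbp10 and Gbp11 of the second list had the other order. They were at 5.79, 7.31, 7.64 and 3.58 on recurrent 3 and at 3.68, 5.38, 6.24 and 2.1 on recurrent 4. Gbp11 was under background on every array.

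**Figure D3:**
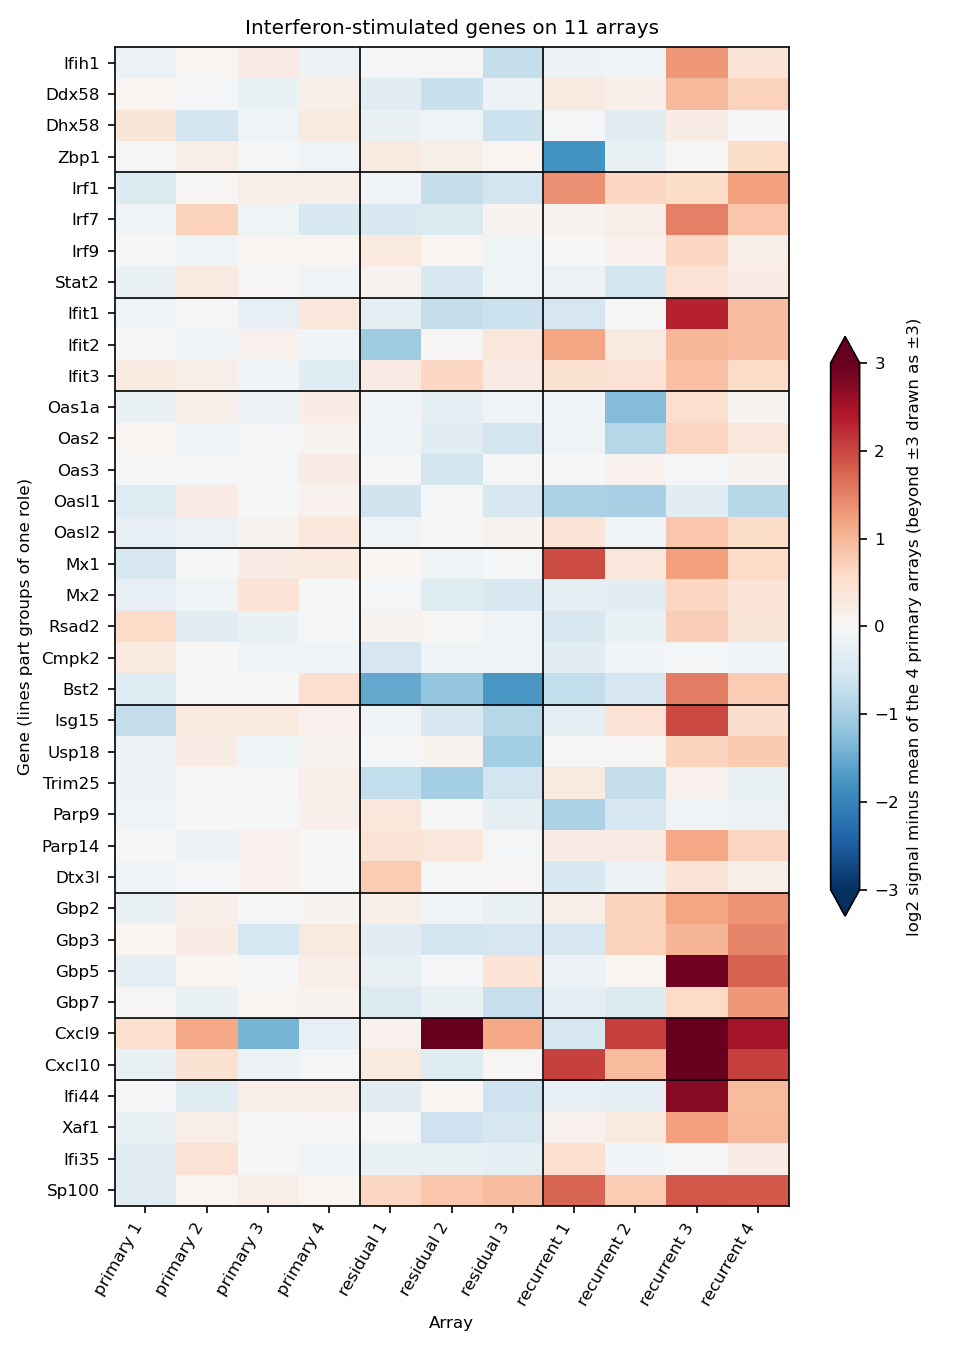
Each row is 1 of the 37 genes and each column 1 of the 11 arrays; colour is the log2 signal minus the mean of the 4 primary arrays, red above and blue below, with values beyond 3 drawn at 3. The columns of recurrent 3 and recurrent 4 are red for 31 and 33 genes, and Zbp1 on recurrent 1 and Bst2 on the residual arrays stand out in blue.

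**Figure D4:**
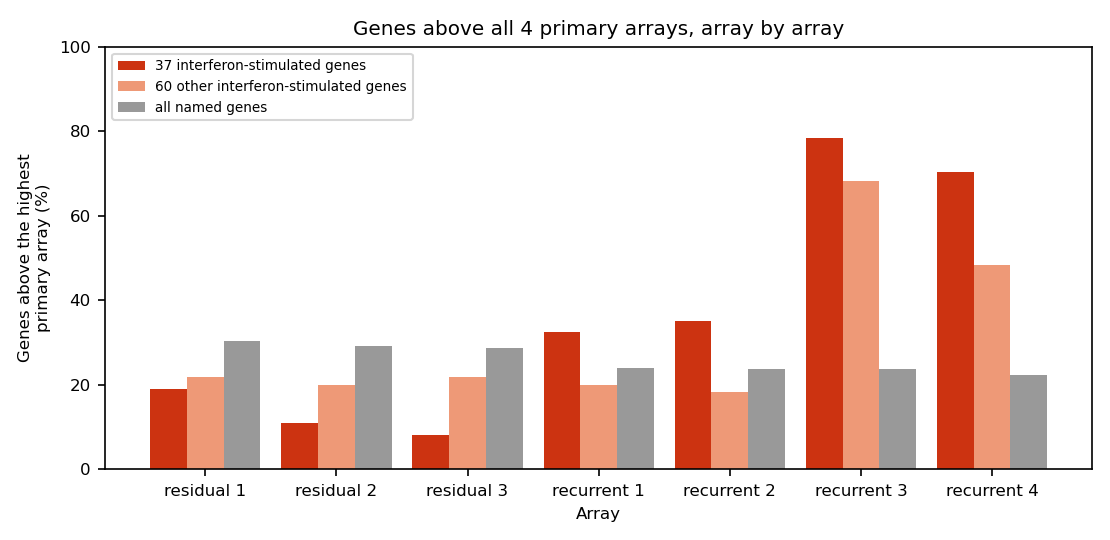
Percentage of genes (y axis) above the highest primary array on each residual and recurrent array (x axis), for the 37 genes, 60 other interferon-stimulated genes and all named genes. The bars of the 37 genes reach 78.4% on recurrent 3 and 70.3% on recurrent 4, and those of all genes stay between 22.4% and 30.3%.

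Among the sensors, Ddx58 was listed at 7.32, 7.21, 7.04 and 7.43 on the 4 primary arrays, at 6.93, 6.58 and 7.09 on the residual and at 7.52, 7.41, 8.23 and 7.95 on the recurrent arrays. All recurrent values lay above all residual ones, with the highest on recurrent 3 and the lowest on recurrent 2, whose 7.41 was under the highest primary value. The difference from residual was 0.91 (95% interval 0.46 to 1.36, adjusted p = 0.0253 in limma). Without residual 1, residual 2 or recurrent 4 its adjusted p rose to between 0.0593 and 0.0955. Recurrent minus primary was 0.53 (adjusted p = 0.229 in limma), which did not pass.

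Zbp1, a sensor of Z-form nucleic acid that can trigger necroptosis, behaved differently. Its levels were 8.77, 9.04, 8.82 and 8.75 on primary, 9.11, 9.02 and 8.90 on residual and 7.05, 8.62, 8.83 and 9.41 on recurrent arrays. Recurrent 1 was the lowest and recurrent 4 the highest of all 11 arrays, so the recurrent group spanned both others. Ifih1 (MDA5), the companion sensor of long double-stranded RNA, reached 6.52 on recurrent 3 and 5.61 on recurrent 4 and lay between 4.52 and 5.48 elsewhere. Dhx58 (LGP2), which modulates both RNA sensors, stayed between 3.75 and 4.77, at or near background. Of the 4 sensors, 1 was called in recurrent against residual and 0 in the other comparisons.

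Of the transcription factors, Irf1, which drives many interferon gamma targets, was at 6.84, 7.28, 7.45 and 7.42 on primary, at 7.16, 6.52 and 6.69 on residual and at 8.62, 7.88, 7.81 and 8.49 on recurrent arrays. Every recurrent array lay above every primary and residual array. In contrast to most of the set, recurrent 1 was the highest and recurrent 3 the lowest of the recurrent arrays. The difference from residual was 1.41 (0.88 to 1.94, adjusted p = 0.0059 in limma) and was called with any single array left out. The difference from primary was 0.95 with an adjusted p of 0.0607 in limma.

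Irf7, the factor that amplifies type I interferon production, was at 5.26, 5.37, 6.66 and 5.99 on recurrent arrays and between 4.71 and 5.84 on the others. Stat2 and Irf9, which act together in the type I response, moved little, with ranges of 5.30 to 6.30 and 4.48 to 5.23 over all arrays, both highest on recurrent 3. Neither was called in any comparison.

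The IFIT proteins bind foreign RNA and block its translation. Ifit1 was at 5.24, 5.39, 5.11 and 5.69 on primary, at 5.10, 4.65 and 4.72 on residual and at 4.85, 5.35, 7.67 and 6.29 on recurrent arrays. Recurrent 3 and recurrent 4 were above every other array, and recurrent 1 and 2 fell inside the range of the other groups. The fitted difference from residual was 1.22 (0.10 to 2.34, adjusted p = 0.209 in limma), so the spread between the recurrent arrays was too large for a call.

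Ifit2 differed from Ifit1 in its order, at 7.07, 6.15, 6.89 and 6.81 on recurrent arrays with recurrent 1 highest. All 4 values were above the highest primary value of 6.04, and the highest residual value was 6.24. Ifit3 reached 6.96, 6.94, 7.41 and 7.08, all above the primary maximum of 6.78, but residual 2 at 7.14 overlapped them. The 3 fitted differences from primary ranged from 0.58 to 0.84 and none was called.

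The oligoadenylate synthetases make the messenger that activates RNase L. Oas1a, Oas2 and Oas3 were near background, between 3.16 and 4.94 over all arrays. Oas3 was listed at 3.91 on 7 of the arrays. Oasl2 was at 6.18, 5.68, 6.59 and 6.30 on recurrent arrays and at most 6.08 elsewhere. Oasl1, which represses Irf7 translation, ran the other way, at 3.88, 3.86, 4.53 and 3.97 on recurrent arrays against 4.44, 5.09, 4.85 and 4.95 on primary. Its difference from primary was -0.77 (adjusted p = 0.0801 in limma) and passed as lower once recurrent 3 was left out. The median of the 5 family members among the 37 against primary was 0.00, beside 0.68 for the 3 IFIT genes and 0.76 for the 4 guanylate-binding proteins of the set. On the second list, Oas1g was at 1.95, 2.55, 6.38 and 4.08 on recurrent arrays and between 2.31 and 3.07 on primary and residual arrays. Oas1b, also there, was at 3.93, 2.93, 3.79 and 3.25 on recurrent arrays and between 3.45 and 4.33 on primary.

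Bst2 (tetherin), which holds budding virus at the cell surface, was at 6.86, 7.20, 7.23 and 7.72 on primary, at 5.72, 6.06 and 5.50 on residual and at 6.51, 6.74, 8.79 and 8.01 on recurrent arrays. The residual arrays lay below all others. Recurrent 3 and 4 were above the primary range, and recurrent 1 and 2 below it. The difference between recurrent and residual was 1.75 (0.74 to 2.77, adjusted p = 0.0489 in limma). The call was lost on leaving out any primary or residual array, recurrent 3 or recurrent 4, with adjusted p from 0.0645 to 0.136. Residual minus primary was -1.49 with an adjusted p of 0.0583 in limma, just outside the threshold.

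The GTPases Mx1 and Mx2, which block viral nucleocapsids, were dim. Mx1 was above background on recurrent 1 alone, at 4.54, and at 2.91, 3.80 and 3.15 on the other recurrent arrays, against 2.09 to 2.88 on primary and residual arrays. Mx2 stayed between 3.46 and 4.54. Rsad2 (viperin) and its neighbouring gene Cmpk2, a nucleotide kinase, were at background, from 2.60 to 3.83 and from 3.11 to 3.91, so no difference in them could be seen.

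In the group of Isg15, a ubiquitin-like modifier, and its partners, Isg15 itself was at 3.72, 4.74, 4.73 and 4.57 on primary, at 4.33, 3.97 and 3.57 on residual and at 4.18, 4.88, 6.41 and 4.97 on recurrent arrays. Recurrent 3 stood well above the rest, and recurrent 1 lay inside the primary range. Usp18, which removes Isg15 and restrains the receptor, was at 4.47, 4.46, 5.10 and 5.21 on recurrent and between 3.42 and 4.65 on the other arrays. Neither was called in any comparison.

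Trim25 was at 7.83, 7.91, 7.99 and 8.19 on primary, at 7.25, 6.96 and 7.41 on residual and at 8.28, 7.26, 8.10 and 7.79 on recurrent arrays. The residual arrays lay below all primary arrays, and recurrent 2 fell among them. The difference of -0.77 between residual and primary (-1.26 to -0.29, adjusted p = 0.0424 in limma) lost its call without any primary array, any residual array or recurrent 4, with adjusted p from 0.055 to 0.145. Parp9 and Dtx3l, neighbouring genes for a mono-ADP-ribosyltransferase and its ubiquitin ligase partner, were highest on residual 1, at 7.80 and 8.01. On recurrent arrays Parp9 was at 6.51, 6.98, 7.36 and 7.29, under or at the lower end of the primary range of 7.36 to 7.63. Parp14, a related ADP-ribosyltransferase beside them in the genome, was at 6.45, 6.46, 7.38 and 6.87 there and above the primary maximum of 6.36 on each. These 3 adjacent genes therefore did not share 1 order over the arrays.

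The guanylate-binding proteins are interferon gamma-induced GTPases that attack vacuoles and membranes of intracellular pathogens. Gbp5 was at 2.29, 2.61, 2.57 and 2.74 on primary, at 2.33, 2.52 and 2.95 on residual and at 2.37, 2.62, 5.46 and 4.32 on recurrent arrays. It was above background on recurrent 3 and recurrent 4 and under it on the 9 other arrays. Its fitted difference from primary was 1.14 (-0.06 to 2.34, adjusted p = 0.402 in limma).

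Gbp2 was at 7.55, 7.90, 7.72 and 7.82 on primary, at 7.92, 7.67 and 7.51 on residual and at 7.92, 8.43, 8.93 and 9.09 on recurrent arrays. Recurrent 2, 3 and 4 were above every other array, and recurrent 1 was close to the highest primary and residual arrays. The difference from primary was 0.85 (0.35 to 1.34, adjusted p = 0.0963 in limma). Gbp3 and Gbp7 were also highest on recurrent 4, at 7.00 and 8.19, and their recurrent 1 values of 5.07 and 6.63 were inside or under the range of the primary arrays. All 4 family members among the 37 had fitted differences above 0 against primary, and 3 of the 4 without recurrent 4.

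The chemokines Cxcl9 and Cxcl10 share the receptor CXCR3. Cxcl10 was at 4.79, 5.47, 4.86 and 4.97 on primary, at 5.32, 4.67 and 5.05 on residual and at 7.07, 5.96, 8.52 and 7.07 on recurrent arrays. Each recurrent array was above each of the 7 others. The mean was 5.02 ± 0.31 (SD, n = 4) on primary, 5.01 ± 0.33 (n = 3) on residual and 7.16 ± 1.05 (n = 4) on recurrent arrays.

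The difference of Cxcl10 from primary was 2.14 (1.22 to 3.05, adjusted p = 0.0269 in limma), and that from residual was 2.14 (1.16 to 3.13, adjusted p = 0.0178). Against primary the call was lost without any primary array, recurrent 1 or recurrent 4 (adjusted p from 0.0522 to 0.0861), while the difference stayed between 1.68 and 2.53. Against residual it was lost without residual 2 or residual 3, at 0.0503 and 0.0692. Without recurrent 3, its highest array, both calls stood.

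Cxcl9 was at 5.29, 6.0, 3.43 and 4.58 on primary, at 4.95, 8.93 and 6.0 on residual and at 4.33, 6.91, 8.53 and 7.31 on recurrent arrays. Its highest value was on residual 2, where Cxcl10 was at 4.67, the lowest of all arrays. The groups overlapped, and the fitted differences from primary, 1.80 for residual and 1.95 for recurrent arrays, were not called (adjusted p = 0.321 and 0.423 in limma).

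Of the other effectors, Sp100 was at 4.81, 5.19, 5.33 and 5.17 on primary, at 5.74, 5.95 and 6.06 on residual and at 6.88, 5.88, 6.98 and 6.95 on recurrent arrays. Primary arrays were below all others, and recurrent 2 lay within the residual range while the other recurrent arrays were above it. The difference between recurrent and primary was 1.55 (1.04 to 2.06, adjusted p = 0.00608 in limma) and was called with any single array left out. Residual minus primary was 0.79 (adjusted p = 0.0637 in limma), the only difference of the set with no overlap in the higher direction between those groups, beside 11.1% of all genes.

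Xaf1 was at 7.73, 8.13, 7.88 and 7.96 on primary, at 7.89, 7.30 and 7.44 on residual and at 8.05, 8.22, 9.15 and 8.90 on recurrent arrays. Recurrent arrays were all above the residual ones, and recurrent 1 was within the primary range. The difference from residual was 1.03 (0.47 to 1.60, adjusted p = 0.0372 in limma). That call was lost without primary 1, 3 or 4, residual 2 or 3, or recurrent 3 or 4 (adjusted p from 0.0544 to 0.126). Ifi44, an antiviral protein of the cytoplasm, was at 3.78, 3.76, 6.77 and 4.98 on recurrent arrays and between 3.40 and 4.23 on the 7 others, so 2 arrays alone stood out. Ifi35, a regulator of innate signalling, stayed between 6.95 and 7.79, highest on recurrent 1.

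**Figure D5:**
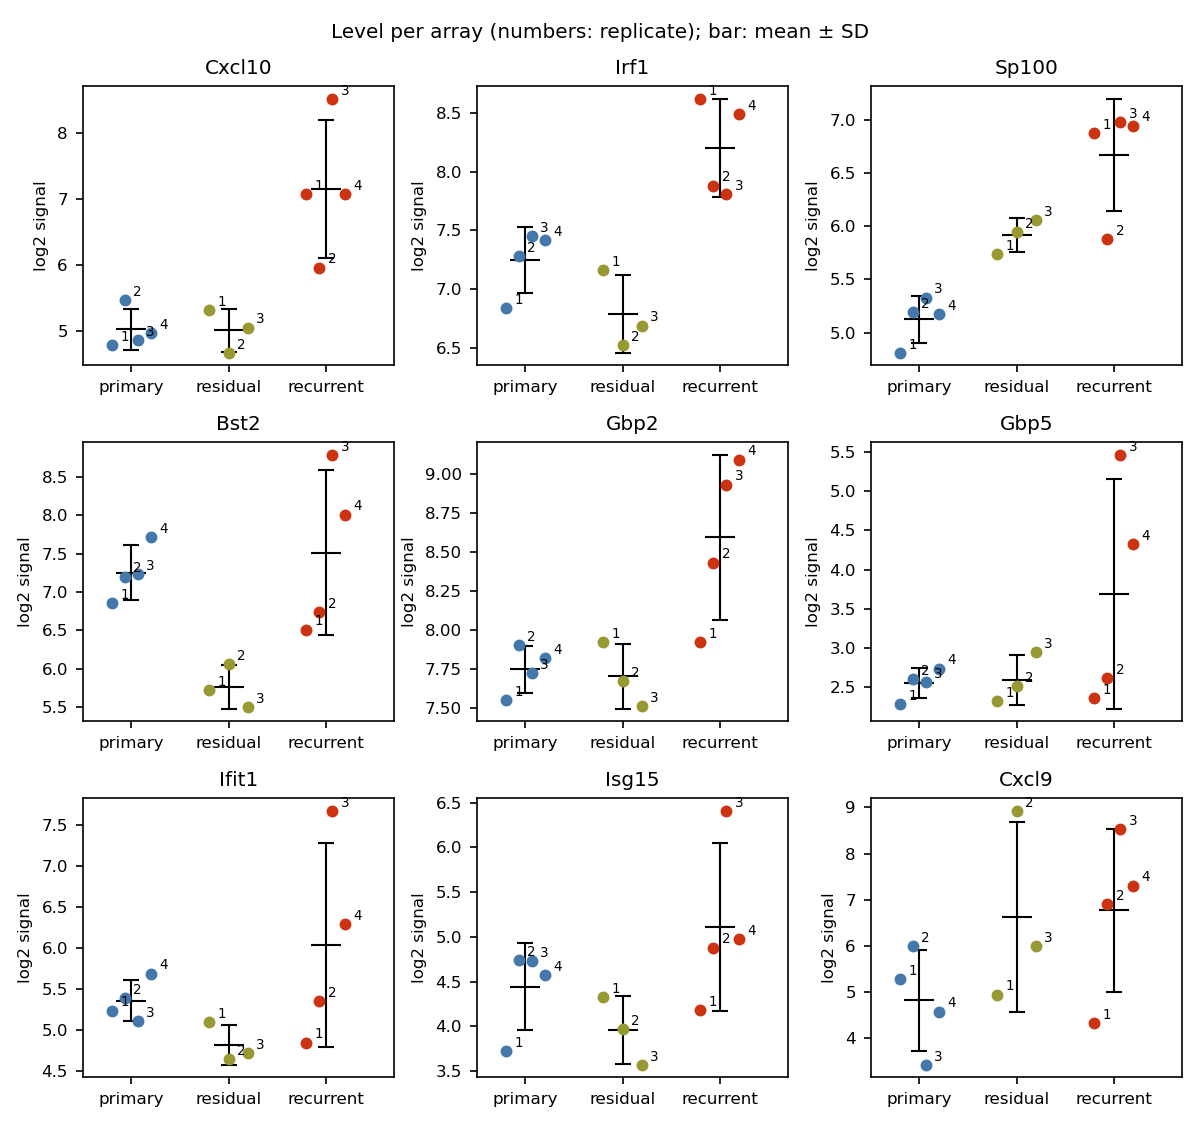
Log2 signal (y axis) of 9 genes on each array by group (x axis); points carry the replicate number and bars are mean ± SD. Cxcl10 and Irf1 show no overlap between recurrent and other arrays, while in Gbp5, Ifit1 and Isg15 the recurrent 1 and 2 points lie near the other groups and recurrent 3 is highest.

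Counted without the fit, 8 of the 37 genes (21.6%, beside 3.64% of all genes) had every recurrent array above every primary array. They were Cxcl10, Gbp2, Ifit2, Ifit3, Irf1, Mx1, Parp14 and Sp100. Against residual arrays there were also 8 (beside 8.18% of all genes), namely Bst2, Cxcl10, Ddx58, Ifi35, Irf1, Irf7, Mx1 and Xaf1. Below every primary array on all residual arrays were 5 genes (13.5%, beside 13.7% of all genes), Bst2, Gbp7, Ifit1, Oas2 and Trim25, a share near that of all genes.

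Without recurrent 3 the median difference from primary was 0.21 and 24 of 37 fitted differences were above 0, with Sp100 and Cxcl10 called higher and Oasl1 called lower. Without recurrent 4 the median was 0.35 and Sp100 alone was called. Against residual arrays, leaving out recurrent 3 kept Ddx58, Irf1 and Cxcl10, and leaving out recurrent 4 kept Irf1 and Cxcl10. Leaving out recurrent 2 raised the number called to 9, and leaving out residual 2 lowered it to 1, Irf1.

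A second list of 60 other interferon-stimulated genes showed a like order of the arrays. Their mean level was between 6.23 and 6.37 on primary and between 5.99 and 6.07 on residual arrays, and at 6.22, 6.24, 7.05 and 6.70 on recurrent 1 to 4. The same mean over the 37 genes was between 5.43 and 5.60, between 5.29 and 5.44, and at 5.58, 5.55, 6.57 and 6.20. Of the 60, 41 (68.3%) were above all primary arrays on recurrent 3 and 29 (48.3%) on recurrent 4, against 12 and 11 on recurrent 1 and 2.

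Against primary arrays 3 of the 60 (5.0%, beside 0.818% of all genes) were called higher in recurrent arrays. They were Phf11d at 1.74, the Isg15-activating enzyme Uba7 at 1.13 and Apol9a at 0.63. None was called lower, beside 0.986% of all genes. Against residual arrays 8 were higher (13.3%, beside 3.58% of all genes) and 1, Pml, was lower at -0.52 (1.7%, beside 2.19%). The largest were Ifi27l2a at 2.75, the schlafen gene Slfn9 at 2.56, the chemokine Ccl5 at 2.30, Phf11d at 1.74, the immunity-related GTPase Igtp at 1.64 and the immunoproteasome subunit Psmb9 at 1.42. Between residual and primary arrays 2 rose, Ifi30 by 0.98 and Pml by 0.53, and 5 fell. The rises are 3.3% of the 60, beside 4.81% of all genes, and the falls 8.3%, beside 7.61%. Both shares are near those of all genes. The falls were -2.82 for Slfn2, -2.71 for Slfn9, -1.72 for Ccl5, -1.20 for Ifi204 and -0.87 for Ifi203.

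Slfn9 and Ifi204 were lower in residual than in both other groups with any single array left out. Igtp was at 8.92 on recurrent 3 and 7.99 on recurrent 4 and between 5.88 and 6.75 on the other arrays, a contrast like that of Gbp5 and Ifit1. Its call was lost without any primary or residual array or recurrent 4. That of Ifi27l2a was lost without residual 1, residual 3, recurrent 3 or recurrent 4. The calls of Phf11d, Uba7 and Apol9a against primary were each lost without recurrent 3 or recurrent 4, among other arrays. Between residual and primary arrays the call of Slfn2 stood with any single array left out, and that of Ccl5 was lost without residual 2 (adjusted p = 0.0516 in limma). There Pml lost its call without primary 1 or residual 3, Ifi203 without any of 5 arrays and Ifi30 without any of 6, with adjusted p of at most 0.122. Against residual arrays Psmb9 lost its call without any residual array, recurrent 3 or recurrent 4, and Ccl5 kept its call throughout.

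The 42 measured genes of the interferon pathway itself, ligands, receptors, kinases and adaptors, did not show this order. Their mean level was between 6.35 and 6.48 on all 11 arrays. Of the 7 interferon genes measured, Ifnb1 (1.66 to 3.44), Ifng (2.64 to 3.47), Ifnk (2.35 to 3.59) and Ifne (2.28 to 2.71) were under background on every array. The type I gene Ifna4 (4.76 to 5.81) and the type III genes Ifnl2 (6.53 to 7.54) and Ifnl3 (5.22 to 6.54) were above it on all 11 arrays. None of the 7 was called in any comparison.

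Of the receptor genes, the type I receptor chain Ifnar2 was called lower in recurrent arrays, by 0.49 against primary and by 0.45 against residual arrays on the log2 scale. It was the only pathway gene called in recurrent against primary arrays. That is 2.4% of the 42, beside 1.8% of all genes called in either direction and 0.986% called lower. The call against primary was lost in 9 and that against residual in 10 of the 11 fits that left out an array. The type II receptor chain Ifngr1 was 0.67 higher in residual than in primary arrays, and the nucleotide phosphohydrolase Samhd1 0.61 higher. The kinase Jak2 was lower there (-0.91), as were Irf5 (-0.93) and the phosphatase Ptpn2 (-0.58). Irf5 was 1.06 higher in recurrent than in residual arrays. Pathway genes called in either direction were 11.9% between residual and primary arrays, beside 12.4% of all genes. Between recurrent and residual arrays they were 4.8%, beside 5.78%. Both shares are near those of all genes. With any single array left out Jak2 stayed called, while Ifngr1 and Samhd1 lost their calls in 5 of 11 such fits, Irf5 against primary in 4 and Ptpn2 in 9. Irf5 against residual arrays was lost without residual 1 alone (adjusted p = 0.0669 in limma).

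Markers of other cell types were set beside these values. The mean of 18 macrophage and monocyte markers was 6.18 to 7.04 on primary and 5.23 to 6.12 on residual arrays, and 5.69, 6.34, 5.82 and 6.72 on recurrent 1 to 4. All 18 had a primary mean above background. Recurrent 4 was the highest recurrent array for 13 of the 18 (72.2%, beside 22.8% of all genes) and recurrent 3 for 1 (5.6%, beside 25.2%). For the 37 interferon-stimulated genes these numbers were 5 (13.5%) and 26 (70.3%). On recurrent 3, Tyrobp was at 7.66 and C1qa at 6.09, both under the lowest primary array, while Cx3cr1 at 7.64 was above the highest. Ptprc, Ly6c2 and C1qb lay inside the primary range there and Fcgr1 and Itgam at its lower end. The remaining markers of the 18 were under it. Between residual and primary arrays 8 of the 18 were called lower, beside 7.61% of all genes, among them Cd14 by 1.46 and Tyrobp by 1.68. Their part in the levels of the 37 genes was not tested.

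The 18 lymphocyte and natural killer markers had means of 3.29 to 3.81 on all arrays, and 12 of them, Cd3e and Ncr1 included, were at or under background on every array. Prf1 (4.63 to 6.48) and Trac (4.28 to 5.48) were above it on all 11 arrays and Klrb1c on 10, with Cd3d, Nkg7 and Gzma on fewer. Of the 10 dendritic markers, which include Bst2, 5 were at or under background on every array, Siglech and Flt3 among them. Neutrophil markers Ly6g, Csf3r, Ngp, Camp and Retnlg were at or under background throughout. S100a8, also known in epithelium, was at 11.81 and 10.51 on recurrent 1 and 2 and at 6.04 and 4.34 on recurrent 3 and 4. S100a9 was at 6.04, 6.48, 3.16 and 3.96 on recurrent 1 to 4. The neutrophil marker Cxcr2 was between 4.25 and 4.97 and above background on 10 arrays. The endothelial markers Vwf, Kdr, Esam, Emcn and Tek were under background on all arrays, but Cdh5 was at 10.13 on recurrent 3 and at most 5.72 on the others. On recurrent 1 to 4 Pecam1 was at 4.33, 5.28, 3.78 and 4.33 and Plvap at 6.18, 5.92, 5.45 and 4.99, neither highest on recurrent 3. The 10 fibroblast markers averaged 5.95 to 6.91 on primary, 8.91 to 10.16 on residual and 8.83 to 9.80 on recurrent arrays. Of these, 7 were called higher in recurrent than in primary arrays, beside 0.818% of all genes. The part of these markers in the interferon-stimulated levels was not tested.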

How the data were processed

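The authors deposited log2 values of 24479 probe sets on 11 arrays, 1 probe set per Entrez ID; RMA (background correction, quantile normalization and probe summary) and R 3.0.2 are named per the submitters' processing notes, and no source used here names the array annotation version. Names came from RefSeq by Entrez ID (23712), or otherwise from the platform table (125), and 642 probe sets stayed unnamed. The members and all gene lists were chosen with earlier results of these data known.

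Groups came from the sample labels. limma 3.58.1 in R 4.3.3 (lmFit, eBayes) was fitted to 23835 named genes with the 3 groups in one model (8 residual and 3.46 prior degrees of freedom), without further normalization. Benjamini-Hochberg adjustment ran over all genes in each of 3 comparisons, and a gene was called at adjusted p under 0.05. The fit was tested on simulated data. No batch is named in the labels. The number of arrays limits the precision.

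Values on every array are given for genes called in any comparison, for the 4 with the largest change in each comparison and for the 6 with the largest range over recurrent arrays. Gbp2, Ifit2, Irf7, Isg15 and others with such values were added after their values were seen. Of the other interferon-stimulated and pathway lists, up to 6 called genes per comparison with the largest change were taken. The measured interferon genes were added, as were guanylate-binding protein and Oas genes of the second list after their values were seen. Of the marker lists, up to the 3 brightest and 2 called markers were taken; others were added after their values were seen. Alternatives were other scalings, a filter on dim genes, array weights, other thresholds, the replicate block and each array left out. Plots used Python 3.11.15 and matplotlib 3.10.9.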

Additional observations from a re-analysis of the deposited data

Results flagged for a closer look

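Among 74 groups of 4 arrays tested for a value far from the rest, chance flags about 1 in 20, and 3 were marked. Sp100 was at 5.88 on recurrent 2, against 6.88 to 6.98 on the other recurrent arrays. Cmpk2 was at 3.29 on recurrent 1, and Oas3 at 4.20 on primary 4, where the other 3 primary arrays were listed at 3.91. The last 2 genes are at or near background.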

How the results depend on the processing

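None of the 8 calls among the 37 genes turned its direction under the alternatives run. Of the differences that were not called, 12 turned in recurrent against primary, 4 in recurrent against residual and 12 in residual against primary, the largest of which measured 0.37, 0.15 and 0.32 in size. Among them Gbp7 against primary went from 0.31 to -0.02 without recurrent 4, Bst2 against primary from 0.26 to -0.16 without recurrent 3, and Cxcl9 against residual from 0.15 to between -0.69 and -0.04 without residual 1, residual 3, recurrent 3 or recurrent 4. The cause of these changes and of those in number was not tested. Sp100 against primary (1.44 to 1.81) and Irf1 against residual arrays (1.27 to 1.59) were called in all 19 alternatives of the fit. Cxcl10 was called in 11 of 19 against primary and 16 of 19 against residual, Ddx58 in 14, Xaf1 in 9, Trim25 in 8 and Bst2 in 5 against residual. Signal near background limits what can be said of Rsad2, Cmpk2, Mx1, Mx2 and the Oas genes. In what follows, higher and lower are counts of called genes.

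The labels do not say whether replicate numbers pair the arrays. Deviations of same-numbered arrays from their group means correlated between -0.11 and 0.02, which cannot settle it. With the replicate block, residual against primary gave 0 of the 37 lower, 1 of the other interferon-stimulated genes higher, and 0 pathway genes higher and 1 lower. Recurrent against primary gave 1 of the 37 higher, 1 of the other interferon-stimulated genes higher, 0 pathway genes lower and 277 of all genes. Recurrent against residual gave 2 of the 37 higher, 5 of the other interferon-stimulated genes higher and 0 lower, 0 pathway genes in either direction and 872 of all genes.

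With only the groups compared in the fit, residual against primary gave 1 of the 37 higher and 2 lower, beside 1219 and 1946 of 23835 genes. It also gave 11 other interferon-stimulated genes lower. Recurrent against primary then gave 1 of the 37 higher, 0 other interferon-stimulated genes higher and 1 lower, and 0 pathway genes lower. Recurrent against residual gave 1 of the 37 higher, 3 other interferon-stimulated genes higher and 0 lower, 0 pathway genes lower and 609 of all genes.

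Centring arrays gave 2 of the 37 and 9 other interferon-stimulated genes lower in residual against primary, 2 pathway genes lower in recurrent against primary and 0 lower in recurrent against residual. Repeated quantile normalization gave 0 of the 37 lower and 4 pathway genes higher in residual against primary, and 0 pathway genes lower in recurrent against primary. Scaling to one interquartile range gave 0 of the 37 lower in residual against primary and 3 higher in recurrent against residual. The filter on dim genes kept 33 of the 37 and 13712 of all genes. It gave 1 of the 33 higher and 2 lower in residual against primary, beside 1060 and 1990 of all genes. In recurrent against primary it gave 1 other interferon-stimulated gene lower, and 1 pathway gene higher and 2 lower. A trended robust fit gave 1 pathway gene higher in recurrent against primary. Array weights gave 2 of the 37 lower in residual against primary, beside 1849 of 23835 genes. In recurrent against primary they gave 4 of the 37 higher, beside 261 of 23835 genes. There 1 other interferon-stimulated gene was lower, and 1 pathway gene was higher and 2 lower. In recurrent against residual they gave 0 pathway genes in either direction.

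At adjusted p under 0.01, residual against primary gave 0 of the 37 lower, 0 other interferon-stimulated genes higher and 3 lower, 0 pathway genes in either direction and 1375 of all genes. Recurrent against primary gave 1 of the 37 higher, 0 other interferon-stimulated genes higher, 0 pathway genes lower and 142 of all genes. Recurrent against residual gave 1 of the 37 and 2 other interferon-stimulated genes higher, 0 lower, 0 pathway genes in either direction and 521 of all genes. With an added 2-fold minimum, 1361, 266 and 708 of all genes were called in these 3 comparisons. Of the 37 and of the pathway genes 0 were lower in residual against primary, of pathway genes and other interferon-stimulated genes 0 were higher there, 0 pathway genes were lower in recurrent against primary, and 0 of both lists were lower in recurrent against residual.

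Leaving out 1 array at a time, in residual against primary the 37 gave 0 to 1 higher and 0 to 2 lower, the other interferon-stimulated genes 0 to 2 and 3 to 7, and pathway genes 0 to 3 and 1 to 3. In recurrent against primary the 37 gave 1 to 2 higher and 0 to 1 lower, the other interferon-stimulated genes 0 to 3 and 0 to 1, pathway genes 0 to 1 and 0 to 1, and all genes 203 to 420. In recurrent against residual the 37 gave 1 to 9 higher, the other interferon-stimulated genes 3 to 12 higher and 0 to 2 lower, and pathway genes 0 to 1 and 0 to 1.

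With the final C of the response element dropped, 15 of the 29 promoter windows matched (51.7%, beside 3.99% of genes), and with only bases before the start 11 matched (37.9%, beside 0.796%).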
